A study of Mus musculus with 20 samples.

Results

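The genes described here are 36 genes of the skeletal muscle sarcomere, its calcium handling and its energy supply, out of 55401 genes in the deposited table of mouse eWAT, the white fat on the epididymis. They were selected on measured values: their transcripts stood high in 6 of the 20 libraries, Control 1 to 5 and Restricted 1, and the split of these 6 against the other 14 comes from the same values, so that contrast is given as a description, with no test. The 10 Control libraries came from mice on a control diet. The 10 Restricted libraries came from Random Food Restriction, which per the labels joined intermittent fasting to a calorie restriction of 5%. The sources used here give no strain or age and do not say whether each library is a separate animal, so p-values measure the spread between libraries. The labels also mark spermatozyte contamination, as Yes in 7 Control and 3 Restricted libraries and No in the others. The tissue label reads eWAT in every library, whereas the extraction text names QUAD.

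A sarcomere is the contractile unit of striated muscle: myosin thick filaments slide along actin thin filaments between Z-discs, and titin spans the unit as a spring. Nerve input opens a calcium release channel in the sarcoplasmic reticulum, calcium binds troponin C, and the thin filament is freed for myosin. Fast and slow fibres use different genes for the same parts (myosin heavy chain and troponin T, I and C), so their transcripts report fibre type. Most of these transcripts are not products of fat cells.

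The stretches before the start sites of 7 members are shown because these genes stand for the fast, slow and shared parts of the sarcomere. Each is the 250 bases upstream of a RefSeq start on GRCm38.p6, written from 5′ to 3′ in the direction of the gene. Capitals mark matches on either strand to the E-box CAGCTG bound by myogenic factors, to the MCAT element CATTCC, and to the MEF2 and CArG motifs. Myh4 and Myh2 encode fast myosin heavy chains, Mylpf a fast myosin light chain, Acta1 skeletal actin, Ttn titin, Myh7 the slow myosin heavy chain, and Tnnc1 the slow troponin C.
Myh4: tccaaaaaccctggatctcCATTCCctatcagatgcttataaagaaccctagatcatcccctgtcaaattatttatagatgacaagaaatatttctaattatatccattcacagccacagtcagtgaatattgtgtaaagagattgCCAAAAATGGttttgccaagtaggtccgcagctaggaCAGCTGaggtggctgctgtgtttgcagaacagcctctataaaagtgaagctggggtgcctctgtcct
Myh2: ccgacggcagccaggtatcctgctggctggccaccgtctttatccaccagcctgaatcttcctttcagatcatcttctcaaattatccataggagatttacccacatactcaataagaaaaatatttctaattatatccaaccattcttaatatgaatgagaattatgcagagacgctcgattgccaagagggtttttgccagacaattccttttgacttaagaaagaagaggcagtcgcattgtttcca
Mylpf: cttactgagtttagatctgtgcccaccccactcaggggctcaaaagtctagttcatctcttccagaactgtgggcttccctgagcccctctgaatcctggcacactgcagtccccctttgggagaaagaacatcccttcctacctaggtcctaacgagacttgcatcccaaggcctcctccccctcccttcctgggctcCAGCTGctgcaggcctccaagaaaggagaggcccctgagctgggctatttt
Acta1: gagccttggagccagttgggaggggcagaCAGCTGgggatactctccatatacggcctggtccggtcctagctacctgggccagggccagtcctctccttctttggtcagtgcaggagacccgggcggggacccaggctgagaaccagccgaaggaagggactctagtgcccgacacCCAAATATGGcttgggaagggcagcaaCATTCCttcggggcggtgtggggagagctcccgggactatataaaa
Ttn: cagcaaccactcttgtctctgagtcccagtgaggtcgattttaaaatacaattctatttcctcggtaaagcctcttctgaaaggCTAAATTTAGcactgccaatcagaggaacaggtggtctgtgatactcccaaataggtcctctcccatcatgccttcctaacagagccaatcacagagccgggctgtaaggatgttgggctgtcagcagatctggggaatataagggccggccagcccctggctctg
Myh7: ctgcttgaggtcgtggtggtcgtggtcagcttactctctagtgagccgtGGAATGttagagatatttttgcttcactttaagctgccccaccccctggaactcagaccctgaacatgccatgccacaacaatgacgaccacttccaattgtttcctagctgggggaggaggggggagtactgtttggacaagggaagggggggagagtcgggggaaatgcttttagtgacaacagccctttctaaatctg
Tnnc1: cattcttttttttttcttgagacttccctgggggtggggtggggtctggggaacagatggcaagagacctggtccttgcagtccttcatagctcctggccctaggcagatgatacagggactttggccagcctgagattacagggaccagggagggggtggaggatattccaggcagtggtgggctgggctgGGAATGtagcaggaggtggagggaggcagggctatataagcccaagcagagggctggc
The stretches lie at chr11:67237562-67237811 on the plus strand (Myh4), chr11:67170777-67171026 on the plus strand (Myh2), chr7:127211358-127211607 on the plus strand (Mylpf) and chr8:123894776-123895025 on the minus strand (Acta1). Those of Ttn (chr2:76982548-76982797) and Myh7 (chr14:54994627-54994876) are on the minus strand, and that of Tnnc1 (chr14:31208062-31208311) is on the plus strand. The Myh4 and Acta1 stretches each hold an E-box, an MCAT element and a CArG match, whereas the Myh2 stretch holds none of the 4 motifs.

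Start sites were listed for 28 of the 36 members, 34 sites in all. The E-box was present at 44.1% of these 34 sites, against 13% of the 32851 start sites in the RefSeq table. The MCAT element was present at 26.5% against 12.6%, the CArG motif at 11.8% against 1.47%, and the MEF2 motif at 5.88% against 0.508%. The MEF2 matches were before Ttn and Xirp2, and the CArG matches before Acta1, Ldb3 and Myh4. A match describes the letters in these windows and does not show that a factor binds there.

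The 36 genes together held 0.133% to 0.438% of all counts in the 6 libraries and 0.0138% to 0.0213% in the other 14. In CPM, the counts scaled so that each library sums to 1e6, their summed level was 2197 in Control 1, 1327 in Control 2, 2313 in Control 3, 2703 in Control 4, 2729 in Control 5 and 4380 in Restricted 1. In the other 14 libraries it ran from 137.7 to 213.3 with a median of 155.8, and Restricted 10 was the highest of them. The lowest of the 6 was therefore far above the highest of the 14. In bulk tissue, fewer muscle cells and less RNA per cell cannot be told apart. Libraries held 14306528 to 44061508 counts, and RNA integrity numbers, where given, were 7.1 to 7.9 in the 6 and 6.5 to 7.9 in the 14. The contamination label was Yes in 5 of the 6, Control 3 being the exception, and in 5 of the 14.

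**Figure D1:**
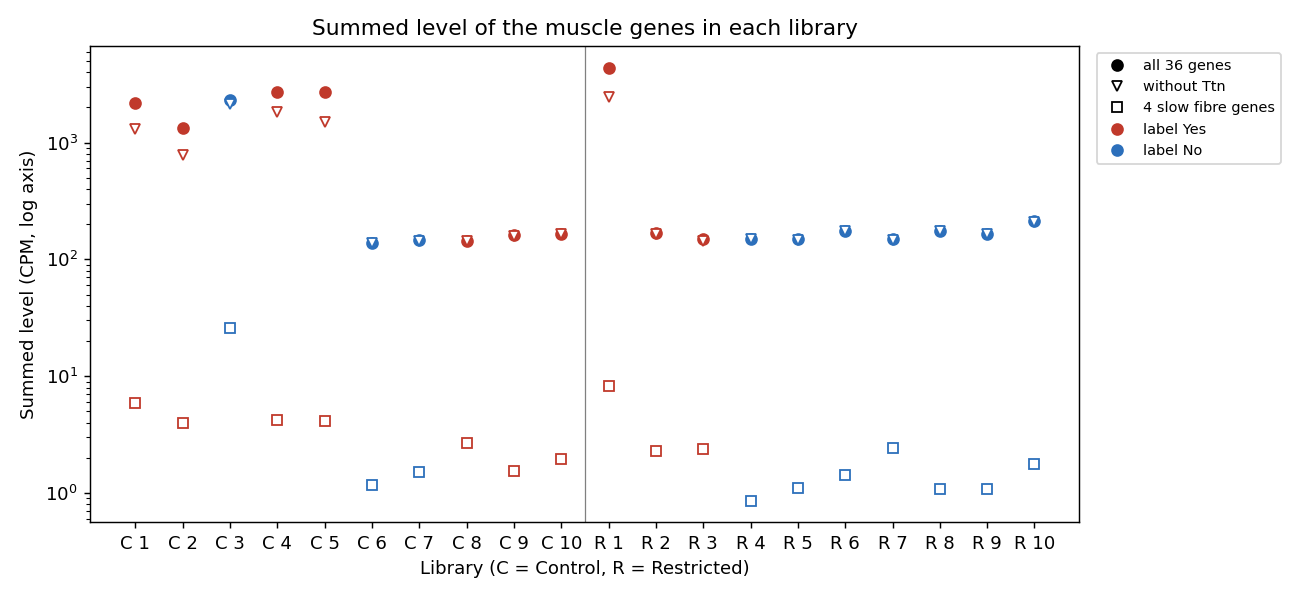
Summed level per library in CPM on a log axis for all 36 genes (filled circles), for the genes without Ttn (triangles) and for the 4 slow fibre genes (squares); each point is 1 library and colour gives the contamination label. Control 1 to 5 and Restricted 1 lie between 1327 and 4380 CPM and the other 14 between 137.7 and 213.3.

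For 31 of the 36 genes, each of the 6 libraries was above each of the other 14. The same was true of 0.317% of the 35680 genes with a count in any library, but since the genes were chosen on this contrast nothing is read from the difference. The 5 genes whose levels overlapped were Ldb3, Acta1, Myh7, Tnnt1 and Tnnc1. Just inside that limit lay Des, whose lowest value in the 6 was 1.18 times its highest in the 14, and just outside lay Ldb3 at 0.937 times. Control 2 was the lowest of the 6 for 30 genes. The highest was Control 3 for 19 genes, Restricted 1 for 16 and Control 5 for 1, Smpx.

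**Figure D2:**
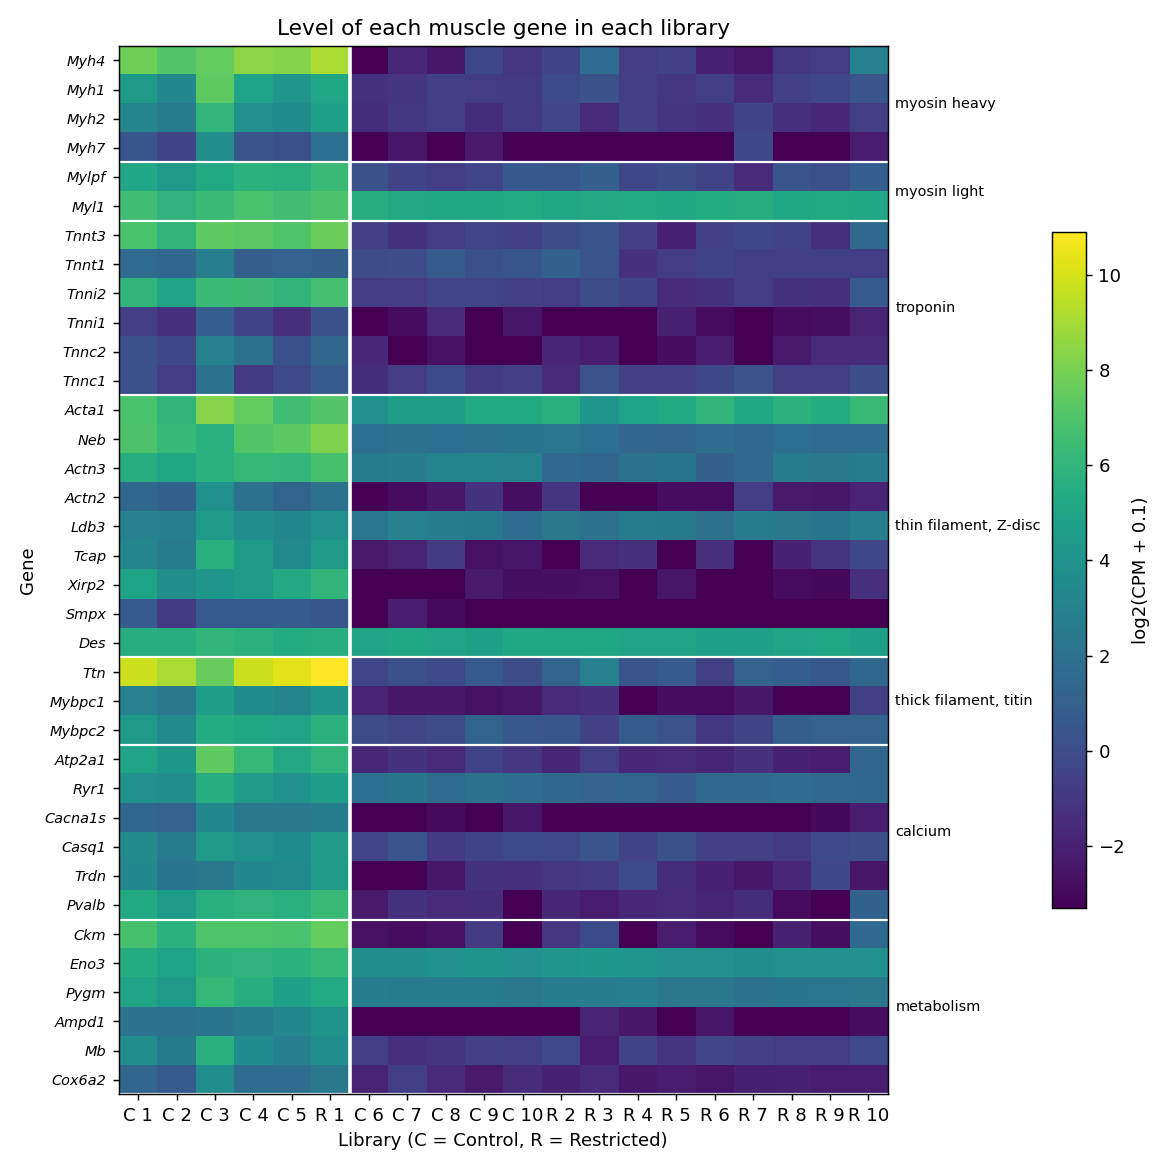
Level of each of the 36 genes (rows, grouped by role) in each of the 20 libraries (columns), as log2(CPM + 0.1) in colour; the white line parts Control 1 to 5 and Restricted 1 from the other 14. Most rows are bright to the left of the line, Myl1, Des, Eno3 and Acta1 also have colour to the right of it, and Control 3 is brighter than its neighbours for Myh1, Atp2a1 and Mb and darker for Ttn.

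The myosin heavy chains are the motors of the thick filament, and their isoform sets the speed of a fibre. Myh4, the fastest isoform (IIb), was at 222 CPM in Control 1, 136 in Control 2, 182 in Control 3, 352 in Control 4, 309 in Control 5 and 546 in Restricted 1. In the other 14 libraries Myh4 ran from 0 to 7.51 CPM with a median of 0.435, and Restricted 10 (7.51) and Restricted 3 (3.28) were the highest of them. Restricted 1 was thus the highest library and no value of the 6 came near those of the 14. Myh1, the IIx isoform, had 21.6, 9.91, 170, 30.4 and 16.8 CPM in Control 1 to 5 and 34.0 in Restricted 1, against 0.223 to 1.27 in the 14. Here Control 3 was by far the highest library. Myh2, the IIa isoform of fast oxidative fibres, was also highest there, with 65.6 CPM in Control 3, 5.91 to 27.9 in the other 5 and 0.204 to 0.674 in the 14. Myh7, the slow isoform, had 13.3 CPM in Control 3 and 0.667 to 3.59 in the other 5. It was at 0 in 10 of the 14 and reached 0.715 in Restricted 7, just above the 0.667 of Control 2. The fast isoforms lie side by side on chromosome 11 in the deposited coordinates, Myh2 at 67171027 to 67197517, Myh1 at 67200052 to 67224575 and Myh4 at 67238029 to 67260446, all on the plus strand.

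As a share of the counts of these 4 genes, Myh4 took 87.4% in Control 1 (95% exact binomial interval 86.4 to 88.3%, counting error only), 89.2% in Control 2, 88.5% in Control 4, 91.2% in Control 5 and 89.3% in Restricted 1. Control 3 stood apart at 42.2% (41.0 to 43.5%). Its Myh1 share was 39.4% (38.2 to 40.7%), against 4.96 to 8.48% in the other 5. Its Myh2 share was 15.2% against 3.52 to 4.56%, and its Myh7 share 3.09% (2.67 to 3.55%) against 0.304 to 0.587%. Restricted 1, from the other diet, had the mix of Control 1, 2, 4 and 5. Among the 14 libraries, Restricted 10 had enough myosin counts for a share, 79.5% Myh4 (73.8 to 84.4%) of 239 counts, and Restricted 3 had 72.3% (61.4 to 81.6%) of 83. Summed over the 14, Myh4 was 48.7% of 737 counts, Myh1 28.8%, Myh2 19.4% and Myh7 3.12%. That sum includes Restricted 10 and Restricted 3, which held 190 and 60 of its 359 Myh4 counts, so it does not describe a typical library of the 14. These genes share sequence: 18.0% of the windows of 52 bases (the read length) in Myh4 and 25.8% in Myh1 also occur in another myosin transcript, so that counts can be split between them.

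**Figure D3:**
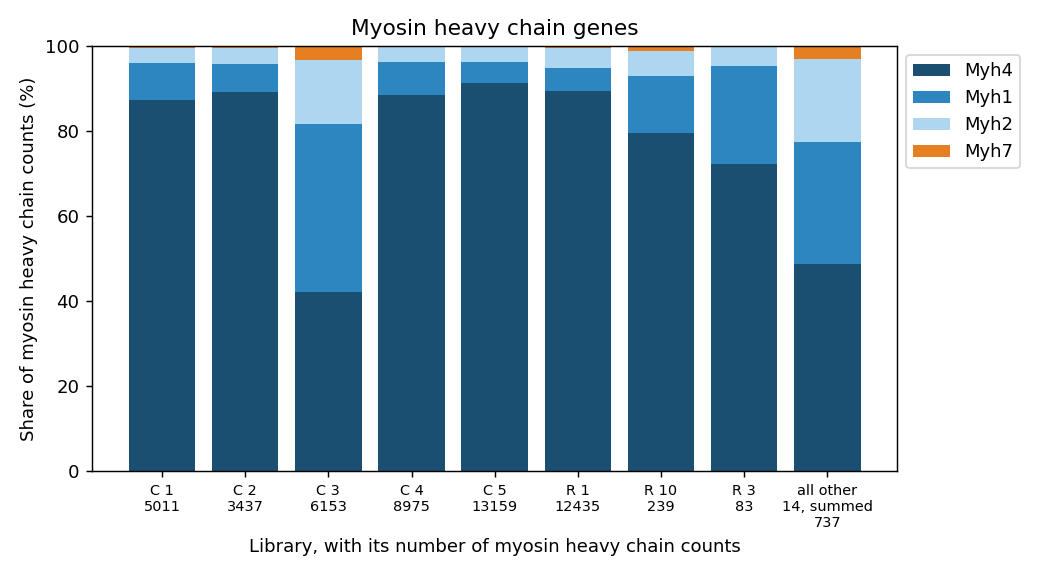
Share of the counts of the 4 myosin heavy chain genes taken by each, in percent, for the 6 libraries, for Restricted 10 and Restricted 3, and for the other 14 libraries summed, with the number of counts under each bar. The sum over the 14 includes Restricted 10 and Restricted 3. Myh4 takes 87.4 to 91.2% in 5 of the 6 libraries and 42.2% in Control 3.

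The myosin light chains steady the lever arm of the motor. Mylpf, the fast regulatory chain, had 36.7, 21.4, 40.6, 53.7 and 49.4 CPM in Control 1 to 5 and 80.5 in Restricted 1, against 0.223 to 1.97 in the 14. Myl1, the fast essential chain, had 95.4, 60.2, 85.0, 115 and 94.2 CPM and 125 in Restricted 1. Its level in the 14 was itself 33.7 to 46.5 CPM with a median of 38.2, so the genes differ in how much of their level is seen in every library.

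Troponin T ties the troponin complex to tropomyosin, troponin I inhibits the motor and troponin C binds calcium. The fast genes Tnnt3 and Tnni2 were among the most abundant members. Tnnt3 was at 117, 63.4, 165, 153 and 129 CPM in Control 1 to 5 and 211 in Restricted 1, against 0.152 to 2.93 in the 14. Tnni2 was at 32.3 to 103 CPM in the 6 and 0.229 to 1.54 in the 14. Tnnc2, the fast troponin C, was low, with 0.711 to 7.69 CPM in the 6 and 0 to 0.237 in the 14. Of the slow forms, Tnni1 had 0.284 to 1.82 CPM in the 6 and 0 to 0.234 in the 14. Tnnt1 had 3.10, 2.49, 6.78, 1.91 and 2.09 CPM in Control 1 to 5 and 1.97 in Restricted 1, and its range in the 14, 0.302 to 2.07, overlapped these. Tnnc1, which heart and slow fibres share, had 0.443 to 4.19 CPM in the 6 and 0.241 to 1.16 in the 14. The slow forms of troponin T and C were thus in reach of the 14 libraries and the fast forms of all 3 subunits were not. In Control 3 each slow form was the highest of the 6.

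Of the thin filament and Z-disc genes, Acta1, Neb, Actn3, Des and Ldb3 had counts in every library. Acta1, skeletal alpha-actin, was at 114, 64.3, 320, 183 and 95.2 CPM in Control 1 to 5 and 137 in Restricted 1. In the 14 it ran from 13.9 to 79.5 CPM with a median of 40.0, and Restricted 10 was above Control 2. Neb, nebulin, the ruler of the thin filament, was at 120, 73.2, 51.9, 133 and 161 CPM and at 284 in Restricted 1, against 2.29 to 4.67 in the 14. Actn3, the alpha-actinin of fast fibres, was at 34.5 to 108 CPM in the 6 and 1.995 to 9.07 in the 14. Actn2, the alpha-actinin of all fibres and of heart, was lower, at 13.9 CPM in Control 3, 2.05 to 4.08 in the other 5 and at most 0.492 in the 14. Tcap, telethonin, which caps titin at the Z-disc, was at 50.3 CPM in Control 3, 5.60 to 21.5 in the other 5 and at most 0.711 in the 14. Xirp2, an actin-binding repeat protein, had the widest separation of all members: 12.9 to 63.7 CPM in the 6 and at most 0.277 in the 14, the lowest of the 6 being 46.6 times the highest of the 14. Smpx, a small muscle protein, was at 0.445 to 1.65 CPM in the 6 and at 0 in 12 of the 14. Des, desmin, the intermediate filament that links Z-discs, was at 42.7 to 62.9 CPM against 25.9 to 36.3. Ldb3, the Z-disc protein also called cypher, was at 7.11 to 20.9 CPM against 3.45 to 7.59.

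Titin and the myosin-binding proteins C attach to the thick filament. Ttn was at 898, 547, 196, 892 and 1226 CPM in Control 1 to 5 and 1934 in Restricted 1, and from 0.544 to 7.27 in the 14, with the highest value in Restricted 3. It alone took 33.0 to 44.9% of the counts of all 36 genes in 5 of the 6 libraries, but 8.47% in Control 3. Without Ttn the summed level of the other genes was 779.9 to 2446 CPM in the 6 and 137.0 to 210.7 in the 14. Ttn has a listed length of 117334 bases, and per kilobase its median level in the 6 was 7.63 CPM, well under the 89.0 of Tnnt3, the 81.5 of Acta1 and the 44.2 of Myh4. Mybpc2, the fast form of myosin-binding protein C, was at 11.0 to 56.0 CPM in the 6 and 0.399 to 2.35 in the 14. Mybpc1, the slow form, was at 4.98 to 24.2 CPM in the 6 and at most 0.553 in the 14.

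The calcium genes move the signal from the membrane to the filaments and back. Cacna1s, the voltage sensor of the transverse tubule, was at 2.13 to 9.995 CPM in the 6 and at 0 in 10 of the 14. Ryr1, the calcium release channel, was at 15.9, 13.03, 46.5, 23.3 and 15.4 CPM in Control 1 to 5 and 24.2 in Restricted 1, and it was seen in every other library at 1.60 to 4.45 CPM. Casq1, which stores calcium in the reticulum, was at 5.91 to 23.6 CPM against 0.431 to 1.203, and Trdn, triadin, which joins it to the channel, was at 4.54 to 23.1 against 0 to 0.820. Atp2a1, the fast calcium pump SERCA that returns calcium to the store, was at 31.3, 19.6, 177, 72 and 39.0 CPM and at 63.3 in Restricted 1, against 0.113 to 2.53 in the 14. Pvalb, parvalbumin, a calcium buffer of the fastest fibres, was at 40.4, 21.5, 48.3, 61.9 and 52.1 CPM and at 78.8 in Restricted 1, against 0 to 2.06. For all 6 calcium genes the 6 libraries lay above the 14, and 3 peaked in Control 3 and 3 in Restricted 1.

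The genes of energy supply followed. Ckm, the creatine kinase that rebuilds ATP beside the myosin heads, was at 111, 55.0, 129, 129 and 113 CPM in Control 1 to 5 and 187 in Restricted 1. In the 14 it ran from 0 to 2.81 CPM with a median of 0.056, and Restricted 10 had the 2.81. Mb, myoglobin, which holds oxygen in oxidative fibres, was at 48.9 CPM in Control 3, 5.34 to 12.6 in the other 5 and 0.109 to 0.790 in the 14. Cox6a2, a muscle form of a cytochrome oxidase subunit, was at 12.3 CPM in Control 3, 1.56 to 5.06 in the other 5 and 0.073 to 0.517 in the 14. Ampd1, the AMP deaminase of muscle, was at 3.82 to 16.5 CPM in the 6 and at 0 in 10 of the 14. Pygm, muscle glycogen phosphorylase, was at 20.6 to 70.5 CPM against 4.25 to 6.99, and Eno3, the muscle enolase, at 30.8 to 72.4 against 12.7 to 19.5.

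The members therefore differed in their level outside the 6 libraries. In the 14, the median was under 1 CPM for 25 genes and at least 10 CPM for 4: Acta1, Myl1, Des and Eno3. Actn3, Mybpc2, Ryr1, Pygm, Ldb3, Ttn and Neb lay between. Restricted 10 was the highest of the 14 for 14 of the genes, among them Ckm, Myh4, Tnnt3, Tnni2, Atp2a1 and Pvalb.

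Among the 6, Control 3 had another mix of the genes than the rest. Each gene was taken relative to Ckm within a library, after the median of the 14 was subtracted. Over 34 genes, leaving out Tnnc1, which fell below the median of the 14 in 2 libraries, the highest of the 5 remaining libraries was a median of 1.66 times their lowest, and 23 genes stayed under 2 times; Tnnt3 had ratios of 1.05 to 1.18. Of all 35 genes other than Ckm, Control 3 lay above all 5 for 21, below all 5 for 9 and within their range for 5. Ckm is itself a member, and these counts depend on it as the only reference. All 4 slow genes (Myh7, Tnnt1, Tnni1 and Tnnc1) were above. Of the 13 fast genes, 7 were above, 4 below (Myh4, Mylpf, Myl1 and Actn3) and 2 within (Tnni2 and Pvalb), so the difference did not follow the fast and slow lists alone. Myh1 was at 1.31 times Ckm in Control 3 and 0.145 to 0.231 in the 5. Atp2a1 was at 1.37 against 0.280 to 0.557, Mb at 0.375 against 0.0542 to 0.109, and Acta1 at 2.17 against 0.444 to 1.11. In the other direction, Ttn was at 1.51 against 6.91 to 10.9, Neb at 0.374 against 1.0 to 1.5, and Myh4 at 1.40 against 2.0 to 2.92.

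**Figure D4:**
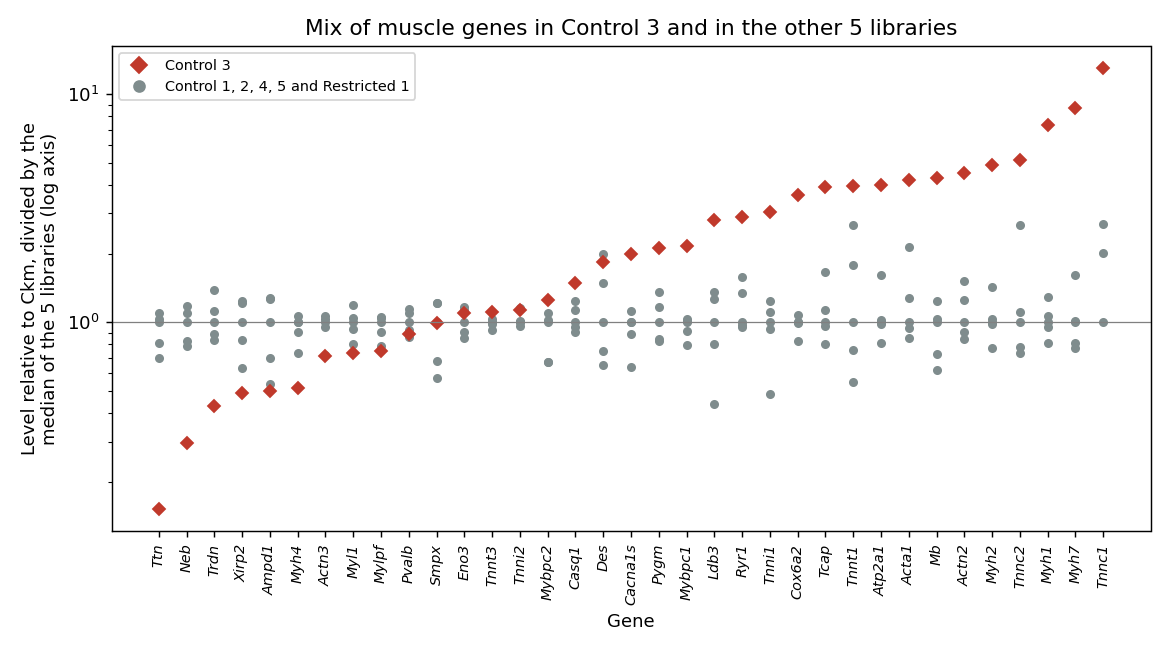
Level of each gene relative to Ckm after the median of the 14 was subtracted, divided by the median of Control 1, 2, 4, 5 and Restricted 1, on a log axis, for Control 3 (diamonds) and those 5 libraries (circles); values of 0 or less, for Tnnc1, are not drawn. Control 3 lies above all 5 for 21 genes and below all 5 for 9, with Ttn the lowest.

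The genes below in Control 3 include the longest transcripts: of 5 members of at least 9000 bases, Ttn, Neb, Xirp2 and Trdn were below and Ryr1 was above. Of 8 members under 1500 bases, 5 were above. Over all 35 genes compared, 21 were above and 9 below, so the share above was similar in short genes and in all. Spearman's rho between length and the ratio of the CPM of Control 3 to the median of the 5 was −0.21 over the 36 members and 0.0235 over 14346 other genes, across genes that share these libraries and are not replicates. The RNA integrity number of Control 3 was 7.9, the highest of the 6, and its total of 14306528 counts the lowest of the 20. The part of either in the mix was not tested.

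Ratios between paralogues were also taken per length. The ratio of Myh4 to Myh7 per kilobase was 19.6 in Control 3 and 218 to 430 in the other 5, and that of Actn3 to Actn2 was 5.07 against 22.0 to 39.0. Tnni2 to Tnni1 was 111 against 230 to 550, on Tnni1 counts as low as 7. Tnnt3 to Tnnt1 was 33.9 in Control 3, close to the 35.4 of Control 2, and 149 in Restricted 1. Tnnc2 to Tnnc1 ran from 1.30 to 11.7 with Control 3 inside that range at 2.39, on counts as low as 10. The fast to slow ratio of Control 3 was thus the lowest of the 6 for Myh4 to Myh7, Tnni2 to Tnni1 and Tnnt3 to Tnnt1. Its ratio of Actn3 to Actn2 was also the lowest, but Actn2 is found in all fibres, so that pair is not fast against slow.

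Other muscle genes, listed by function, were read in the same way. Of the 35680 genes with a count in any library, 0.317% had all 6 libraries above all 14. The split was made on muscle transcripts and the lists were drawn up with earlier results known. The counts in these lists are therefore a description and no independent evidence. Of 25 further sarcomere genes, 18 had all 6 libraries above all 14, among them Tpm2, a tropomyosin (33.5 to 104 CPM against 15.6 to 27.1), and Cmya5, a titin partner (19.9 to 50.4 against 2.73 to 4.52). So had 8 of 14 further genes of excitation and calcium release, such as Srl, sarcalumenin (12.7 to 28.7 CPM against 5.33 to 7.67), and 7 of 15 of muscle metabolism, such as Pfkm, muscle phosphofructokinase (55.9 to 82.6 against 40.4 to 54.9). Of 8 other slow fibre genes, Myl2, Myl3 and Myoz2 had it, and Control 3 was the highest library for each (6.78, 5.87 and 2.52 CPM). The rest of that list overlapped, including its most abundant genes. Atp2a2 was at 170 to 198 CPM in the 6 and 148 to 205 in the 14, and Tpm3 at 95.3 to 144 against 94.3 to 142. Casq2 was at 1.51 to 3.88 CPM against 1.46 to 4.43, with 1.89 in Control 3. None of 11 genes of the muscle membrane and junction had it; Dmd, dystrophin, was at 18.8 to 23.4 CPM in the 6 and 12.5 to 20.5 in the 14.

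Of 8 genes of muscle stem cells and myogenesis, Myf6, the regulator kept on in mature fibres, had it, at 0.356 to 1.18 CPM against at most 0.0447, and Myf5 was at 0 in all 20 libraries. Pax7, the satellite cell factor, was at 3.82 CPM in Control 2 and at most 0.0491 in the other 5. None of 4 developmental myosin genes and none of 8 cardiac genes had it, and Nppb was at 0. Of 4 genes that respond to fasting in muscle, Trim63, a ubiquitin ligase of the sarcomere, was at 1.69 to 4.20 CPM against at most 0.219, and Mstn, myostatin, at 0.349 to 1.08 against at most 0.0363. Fbxo32 and Pdk4 overlapped.

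Markers of other tissues at the pad did not part the libraries this way: no gene of smooth muscle, brown fat, white fat, germ cells, epididymis, tendon, skin, nerve or blood had all 6 above all 14. Only 0.317% of the 35680 genes with a count in any library had it, so nothing is read from its absence here. The white adipocyte sum was 47170 to 55840 CPM in the 6 and 50720 to 58750 in the 14, so markers of white fat were abundant in all libraries. The epididymis sum was 345.1 CPM in Control 1 and at most 1.60 in the other 5, and the tendon sum was highest in Control 3, at 159.2. The skin sum was highest in Control 2, at 35.5. Their part in the muscle levels was not tested.

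Outside the listed members, the 10 genes most like them were ranked by the lowest of the 6 over the highest of the 14, each with 0.1 CPM added, over 20 libraries and among genes of at least 1 CPM in every one of the 6. They were Ppp1r3a (15.2 times), Ckmt2 (13.7), Klhl31 (8.82), Gm25732 (7.12), Myoz1 (6.86), Fbxo40 (6.05), Trim63 (5.61), Myo18b (4.79), Klhl41 (4.62) and Myot (4.36). Ppp1r3a, a glycogen-targeting phosphatase subunit, was highest in Restricted 1 (17.6 CPM) and lowest of the 6 in Control 3 (3.36). Ckmt2, the mitochondrial creatine kinase, was highest in Control 3 (22.3 CPM).

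Whether diet moved these genes was asked by edgeR's quasi-likelihood test with terms for diet and for the contamination label, adjusted over all genes tested (Benjamini-Hochberg). Because 5 of the 6 high libraries are Control libraries, this contrast overlaps with the one that chose the genes and is no independent evidence. In the 20 libraries, 0 of the 35 members tested were called at an adjusted p of 0.05, where 12.5% of 17105 genes were called. DESeq2 called 1, Tnnt1. An unadjusted edgeR p under 0.05 was reached by 6 members. The share of all genes at that threshold is not given here, so nothing is read from the 6. All 35 log2 fold changes were below 0, with a median of −1.74 against 0.02 over all genes. Tnnt1 had the lowest adjusted p (log2 fold change −1.15 ± 0.396 SE, adjusted p = 0.059). Ckm was at 53.7 ± 60.1 CPM (SD, n = 10) on the control diet and 19.1 ± 59.0 (SD, n = 10) under restriction ( log2 fold change −2.09 ± 1.34 SE, edgeR adjusted p = 0.333). Restricted 1 was the highest Restricted library for 35 of the 36 genes.

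Without Restricted 1, 28 of the 35 members were called lower in Restricted libraries, where 5.93% of 17415 genes were called lower. The median log2 fold change of the members was −4.51. Every high library left in this fit is a Control library, so the direction was set by how the genes were chosen. Of the 36 members, 15 did not pass the filter on low counts in the other 14 libraries. Such members were tested here only through the libraries where they are high, so nothing is read from the difference to the 5.93%. In this fit Ckm had a log2 fold change of −6.55 ± 1.49 SE (edgeR adjusted p = 0.00833), Myh4 of −5.66 ± 1.45 (adjusted p = 0.0165) and Ttn of −5.88 ± 1.43 (adjusted p = 0.0124). Those not called were Acta1, Myl1, Tnnc1, Trdn, Ldb3, Des and Eno3. A single library thus decided the call for 28 genes. Without Control 3 in place of Restricted 1, the fold change of Ckm turned to 0.48 and that of Myh4 to 0.84, neither called (adjusted p = 0.859 and 0.755).

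**Figure D5:**
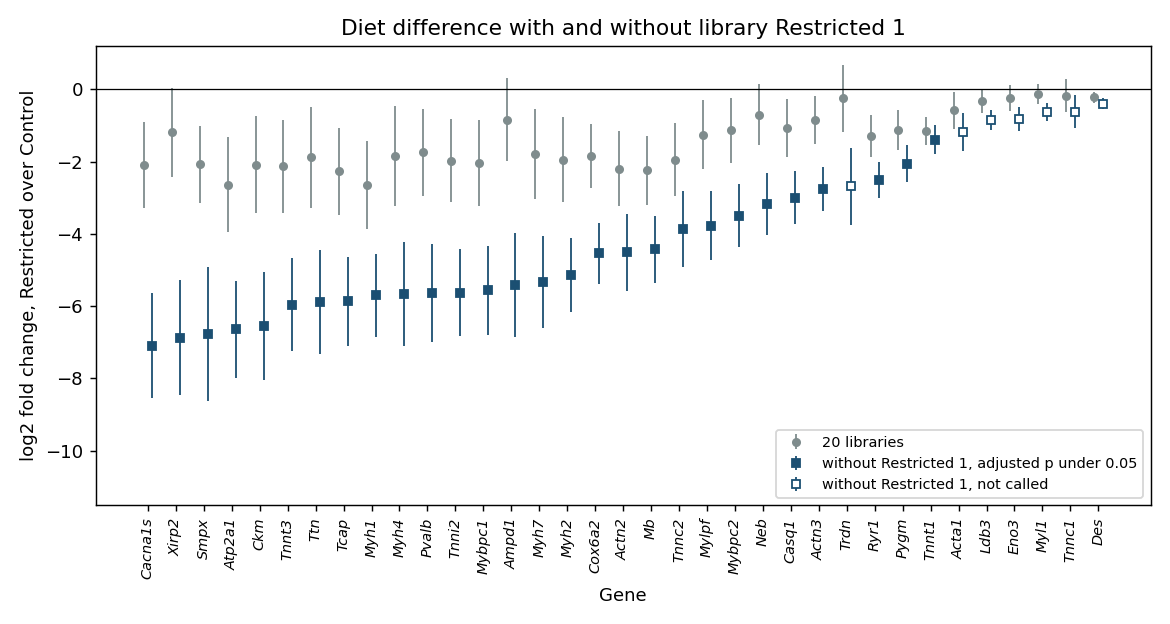
Log2 fold change of Restricted over Control libraries for the 35 genes tested, with SE bars, in all 20 libraries (circles) and without Restricted 1 (squares, filled where the edgeR adjusted p is under 0.05). All circles lie below 0 with none called, and 28 squares are called lower.

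The contamination label gave a second contrast of the same kind. In the 20 libraries, 2 members were called higher in libraries marked Yes, Ttn (log2 fold change 5.52 ± 1.55 SE, edgeR adjusted p = 0.0324) and Neb (3.45 ± 0.904, adjusted p = 0.0186), where 5.7% of all genes were called higher. No member was called without Restricted 1. Without Control 3, the library marked No among the 6, 28 were called higher in Yes, where 6.13% of all genes were called higher. Every high library left in that fit is marked Yes, so that direction too was set by how the genes were chosen. Ttn missed the threshold also without Control 5, 6 or 7 or any one of Restricted 4 to 10 (adjusted p from 0.0507 to 0.0653), while Neb kept its call there. For the difference of the diet effect between the labels, 0 of 36 members and 0.0% of 17813 genes were called by edgeR. DESeq2 called 0 members too. In edgeR 27 members had an unadjusted p under 0.05, each with a value above 0. The share of all genes at that threshold is not given here. Restricted 1, marked Yes, is the only high Restricted library and Control 3 the only high one marked No. That sign too was therefore set by how the genes were chosen. Without the 6 high libraries, the median log2 value of the 25 members tested was −0.149, against 4.934 in the 20.

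The other 14 libraries, 5 Control and 9 Restricted, were also compared by diet and by label. They are what is left after 5 Control and 1 Restricted library were set aside for high values of these genes. Contrasts among them are therefore not independent of the choice either. Of the 36 members, 21 passed the filter on low counts, and 1 was called, where 5.27% of 16978 genes were called. It was Ttn, higher in Restricted libraries (log2 fold change 1.54 ± 0.403 SE, edgeR adjusted p = 0.0386). Its values were 0.693, 0.994, 0.790, 1.55 and 0.938 CPM in Control 6 to 10, and 2.31, 7.27, 1.21, 1.60, 0.544, 2.10, 1.79, 1.36 and 2.61 in Restricted 2 to 10. The groups overlapped, with Restricted 6 the lowest of all and Restricted 3 the highest. Without Restricted 3 and Restricted 10, which also had the most Myh4, the fold change was 0.91 (adjusted p = 0.185), and leaving out Control 6, 7, 8 or 10 or Restricted 3 or 5 alone also ended the call.

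Of the 21 members tested, 7 had a log2 fold change below 0, and the median of all 21 was 0.256. Members higher in Restricted libraries but not called by edgeR included Acta1 (0.791, adjusted p = 0.254), Myh4 (2.908, adjusted p = 0.174), Tnnt3 (0.958, adjusted p = 0.398) and Myh1 (0.924, adjusted p = 0.183). For Myh4 the highest values of the 14 were in Restricted 10 (7.51 CPM) and Restricted 3 (3.28 CPM). Actn3 and Ryr1, with a level in all 14 libraries, leaned lower in Restricted libraries. Actn3 was at 5.76, 6.40, 8.37, 9.07 and 8.06 CPM in Control 6 to 10 and at 2.79, 2.46, 3.67, 4.46, 1.995, 2.77, 5.74, 5.08 and 5.97 in Restricted 2 to 10. Only Restricted 10 reached into the Control range. Its log2 fold change was −0.96 ± 0.302 SE (edgeR adjusted p = 0.0783; DESeq2 adjusted p = 0.013). Ryr1 was at 3.16 to 4.45 CPM in the Control and 1.60 to 3.30 in the Restricted libraries (log2 fold change −0.55 ± 0.166 SE, edgeR adjusted p = 0.0677; DESeq2 adjusted p = 0.0306). Restricted 8 alone lay above the lowest Control library for Ryr1. Both missed the threshold of the main test and passed that of DESeq2. Eno3 was higher in Restricted libraries by 0.26 ± 0.0863 SE (edgeR adjusted p = 0.097). Myl1 (−0.04 ± 0.0698) and Des (−0.03 ± 0.0792) had small differences with edgeR adjusted p of 0.82 and 0.891.

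By label in these 14 libraries, 1 of the 21 members was called, where 5.97% of all genes were called. Tnnt1 was higher in libraries marked Yes (log2 fold change 1.17 ± 0.26 SE, edgeR adjusted p = 0.00864). The 5 Yes libraries were at 1.61, 1.014 and 1.32 CPM (Control 8 to 10), 2.07 (Restricted 2) and 1.26 (Restricted 3). The No libraries were at 0.906 and 0.914 CPM (Control 6 and 7) and at 0.302 to 0.617 in Restricted 4 to 10, so the labels did not overlap. Without Restricted 2, which also had the highest sum of germ cell markers (105.0 CPM), the fold change was 0.81 (adjusted p = 0.164). Germ cell sums in the other 4 Yes libraries were 2.66 to 14.3 CPM and in the No libraries 3.05 to 37.15, and their part in the level of Tnnt1 was not tested.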

How the data were processed

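PolyA RNA of 20 eWAT libraries was read as 52-base pairs, per the labels. The authors deposited whole-number counts per gene for 55401 genes, with gene length and coordinates. GRCm38 is the build in the submitters' processing notes, which list STAR, Salmon and bcl2fastq 4.0.3. How counts were made, on which annotation and with which strand setting, is not given in the sources used here. Reads of genes that overlap in opposite directions could then be mixed, and those of close paralogues split. Symbols were matched by gene identifier without its version, for 55141 genes and all 36 members.

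The members, the gene lists and the split of 6 and 14 libraries were chosen with earlier results of these data known. All members are named, and of other lists at most the 3 most abundant genes and those at 0, with the 10 most similar genes; Cmya5, Myl2, Myl3, Myoz2, Pax7, Myf6, Trim63 and Mstn complete small counts or were named after their values were seen.

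CPM is the deposited count over the plain library total, times 1e6. Tests were run in R 4.3.3 with edgeR 4.0.16 (filterByExpr on the design with a minimum count of 10, TMM scaling, two-sided quasi-likelihood tests, Benjamini-Hochberg adjustment over all genes tested at 0.05), and 17105 genes holding at least 99.722% of each library's counts were tested. Filtering by diet group instead removes 15 of the members and is given as an alternative. Alternatives also included DESeq2 1.42.0, other scaling and filters, other sets of libraries and a replicate block. The steps were tested on simulated data. Figures and tables used Python 3.11.15. Shares carry exact binomial intervals. The SE given with an edgeR log2 fold change is its absolute value over the square root of the F statistic of the test, not a value edgeR reports. At these depths the counting error is small at 10 CPM and not at levels under 1 CPM.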

Additional observations from a re-analysis of the deposited data

Results flagged for a closer look

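Within each diet of 10 libraries, a library was set apart where the gap from the highest or lowest library to its neighbour exceeded 0.466 of the whole range. That is Dixon's 95% limit, and chance alone passes it in about 1 of 20 groups. The genes were selected for high values in these very libraries, so the flags describe the selection and are not independent of it. Among the Restricted libraries, Restricted 1 stood apart for 34 of the 36 members, with gaps of 0.482 to 1.0 of the range, and Control 3 stood apart among the Control libraries for 15, with gaps of 0.481 to 0.901.

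In Restricted 1 the summed level of the 36 genes was 4380 CPM, that of the 13 fast genes 1459 CPM and that of the 4 slow genes 8.254 CPM. Its myosin genes had levels in CPM of Myh4 545.5, Myh1 34, Myh2 27.86, Myh7 3.587, Mylpf 80.53 and Myl1 125.1. Its troponin genes had Tnnt3 210.9, Tnni2 103.3, Tnni1 1.081 and Tnnc2 2.457 CPM. On the thin filament and Z-disc it had Acta1 136.8, Neb 283.5, Actn3 107.5, Actn2 4.078, Ldb3 15.53, Tcap 21.18, Xirp2 63.68, Smpx 1.277 and Des 47.61 CPM, and on the thick filament Ttn 1934, Mybpc1 16.21 and Mybpc2 56.01 CPM. Its calcium genes had Atp2a1 63.28, Ryr1 24.17, Cacna1s 6.486, Casq1 23.58, Trdn 23.09 and Pvalb 78.81 CPM, and those of energy supply Ckm 187.1, Eno3 72.37, Pygm 42.11, Ampd1 16.46, Mb 12.38 and Cox6a2 5.061 CPM. Tnnt1 and Tnnc1 were the members for which it did not stand apart.

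In Control 3 the summed level of the 4 slow genes was 26.07 CPM, whereas the sums of all 36 genes and of the fast genes did not stand apart there. Its myosin and troponin genes that did were Myh1 169.6, Myh2 65.56, Myh7 13.28, Tnnt1 6.78, Tnni1 1.817, Tnnc2 7.689 and Tnnc1 4.194 CPM. The others were Actn2 13.91, Tcap 50.26, Mybpc1 24.18, Atp2a1 176.7, Ryr1 46.48, Cacna1s 9.995, Mb 48.93 and Cox6a2 12.3 CPM. All 4 slow genes are among them, along with Myh1, Myh2, Tnnc2 and Atp2a1 of the fast list.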

How the results depend on the processing

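The count of members called by diet in 20 libraries, 0, was 12 (of 22 tested) in libraries marked No alone, 1 with DESeq2, with no label in the model and with a replicate block, and 1 (Ttn) without the 6 high libraries. Control 3 is the only high library among those marked No. The direction of those 12 calls, all lower, was therefore set by how the genes were chosen. The share of all genes called in that fit is not given here, so nothing is read from the count. Leaving out 1 library gave 0 to 28, the 28 without Restricted 1. By label the 2 called became 0 with a replicate block and 1 (Tnnt1) without the 6, and leaving out 1 library gave 0 to 28, the 28 without Control 3. For diet in 14 libraries the 1 called became 3 with DESeq2, 2 with no filter on low counts, 0 with no label in the model and 0 without Restricted 3 and Restricted 10; leaving out 1 library gave 0 to 2. For the label in 14 libraries the 1 became 2 with DESeq2 (Myh4 added), and leaving out 1 library gave 0 to 2. The cause was not tested, except where fewer libraries or members entered the test.

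In libraries marked Yes alone the diet log2 fold changes turned to 0.40 for Ckm, 0.62 for Myh4 and 0.64 for Ttn, and without Control 3 to 0.48, 0.84 and 0.68, none called. Without Restricted 1 they were −6.55, −5.66 and −5.88. With the replicate block that of Ttn by label was −0.36. In 14 libraries Myl1 went to 0.04 with no label in the model, and leaving out 1 library gave −0.10 (Control 7) to 0.01 (Control 6) for Myl1 and −0.06 (Control 9) to 0.02 (Control 7) for Des. Same-numbered libraries of the 2 diets had correlations from −0.611 to 0.526, so the numbers do not pair them.

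With TMM scaling the summed level was 1229 CPM in Control 2, 5015 in Restricted 1 and 245.7 in Restricted 10. Per length the Myh4 share was 88.4% in Control 1, 44.6% in Control 3, 89.5% in Control 4, 92.0% in Control 5 and 90.4% in Restricted 1. At these depths a gene at 0 in a library can be missed rather than absent.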

Other observations

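H19, an imprinted non-coding RNA that skeletal muscle expresses, was no listed gene and was chosen after its values were seen. It was at 4.62, 1.78, 13.2, 4.30 and 6.01 CPM in Control 1 to 5 and 12.0 CPM in Restricted 1, and at 0.0894 to 1.35 CPM in the other 14 libraries. Control 3 and Restricted 1 were its highest libraries, and 1 of these was also the highest for 35 of the 36 members.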
